A study of Homo sapiens with 8 samples.

Results

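The 300 strongest H3K9me3 intervals of each of 3 chromatin immunoprecipitation libraries of PC9 cells were examined for where they lay and which of them the libraries shared. They were the autosomal intervals with the highest mean signal in each library, with ties taken by chromosome and then by start. These 900 members were drawn from 124708 intervals on all chromosomes. They made up 0.590% of the 50885 autosomal intervals in DTP + TSA cells, 0.661% of the 45381 in DTP cells and 1.30% of the 23043 in parental cells.

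PC9 is a human lung adenocarcinoma cell line that depends on a mutated EGF receptor, and erlotinib inhibits that receptor's kinase. DTP + TSA cells had survived 1 μM erlotinib for 8 days and were then given 50 nM trichostatin A (TSA), a histone deacetylase inhibitor, for 5 hours. DTP cells (drug-tolerant persisters) were the cells that survived the same 8 days of erlotinib without TSA, and parental cells were untreated. All 3 groups share the cell line, the culture medium and the H3K9me3 antibody, and each group is 1 library, so there is no replicate check on any difference between groups. Because DTP cells are survivors, selection of a subset of the parental cells and a change within cells cannot be told apart.

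H3K9me3 is the trimethylation of lysine 9 of histone H3, written by enzymes such as SUV39H1, SUV39H2 and SETDB1 and bound by HP1 proteins in compact, silent chromatin. It is known for covering the satellite repeats around centromeres, repeats near chromosome ends, silenced transposable elements and the clusters of KRAB zinc finger genes. Many satellite copies are missing from the hg19 assembly, so the copies that are present can collect reads of many others. Reads from repeats, and pile-up that input DNA would also give, were not told apart from H3K9me3 signal here, and their part in the values below was not tested.

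The mean signal is the authors' own average over bins within an interval, so it served only to rank and describe intervals within a library. The depth of the libraries and any scaling between them are unknown. Since the members were chosen by mean signal, their mean signals are given as a description. The highest mean signal was 5255 in DTP + TSA cells, 12361 in DTP cells and 2911 in parental cells. The interval at rank 300 had 84.4 in DTP + TSA cells (16p11.2), 58.7 in DTP cells (1p34.1) and 48.7 in parental cells (2q37.3). Just outside the limit, the next interval in rank had 84.3 in DTP + TSA cells (15q13.3), 58.5 in DTP cells (9q13) and 48.6 in parental cells (1p11.2). No step in signal marked the limit. The mean signal of 151 members in DTP + TSA cells, 146 in DTP cells and 140 in parental cells was within 1.5-fold of that at rank 300. Few members were far above the limit, since 15 members in DTP + TSA cells, 22 in DTP cells and 12 in parental cells reached 10 times the signal of rank 300.

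The members held 24.9% of the summed autosomal signal in DTP + TSA cells, 32.3% in DTP cells and 30.0% in parental cells, where the sum is mean signal times bins. They covered 1.11% of the autosomal interval length in DTP + TSA cells, 1.34% in DTP cells and 1.65% in parental cells. A large part of that signal came from few places. The 10 strongest alone held 10.2% in DTP + TSA cells, 14.8% in DTP cells and 18.4% in parental cells. The median member was 3600 bp long in DTP + TSA cells, 3400 bp in DTP cells and 3600 bp in parental cells. The other autosomal intervals had median lengths of 2400 bp in DTP + TSA cells, 2600 bp in DTP cells and 3800 bp in parental cells. Both very long and very short intervals were more frequent among members than among the rest, by little for short ones in DTP + TSA cells. Intervals above 16 kb were 8.33% of members in DTP + TSA cells, against 1.15% of the rest. In DTP cells they were 9.33% of members, against 0.796% of the rest, and in parental cells 7.33%, against 2.83%. Intervals of at most 1 kb were 13.33% of members in DTP + TSA cells, against 12.5% of the rest, 17.7% in DTP cells, against 9.53%, and 12% in parental cells, against 2.17%.

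Centromeres held more of the strongest intervals than of the others in every library. Centromeric bands (the acen bands of the hg19 cytoband table) contained 6.67% of members in DTP + TSA cells, with an exact Clopper-Pearson 95% interval of 4.12% to 10.1%, against 1.34% of the other autosomal intervals. In DTP cells they contained 9% of members (6.02% to 12.8%), against 1.5% of the rest. In parental cells they contained 7.67% (4.92% to 11.3%), against 1.44%. These shares were not compared between libraries by a test. All such intervals cover counting error only. A wider zone, within 5 Mb of a centromeric band, held 24.7% of members in DTP + TSA cells, 28.0% in DTP cells and 19% in parental cells. The same zone held 9.09% of the other intervals in DTP + TSA cells, 9.37% in DTP cells and 9.55% in parental cells. Some of the variable heterochromatin of chromosomes 1, 9 and 16 lies farther out. Counting members within 5 Mb of either a centromeric or a variable band raised the shares to 30.3% in DTP + TSA cells, 35.3% in DTP cells and 24.3% in parental cells. The zone near centromeres was densest at the very top of each list: it held 36 of ranks 1 to 100 in DTP + TSA cells, 41 in DTP cells and 32 in parental cells.

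**Figure D1:**
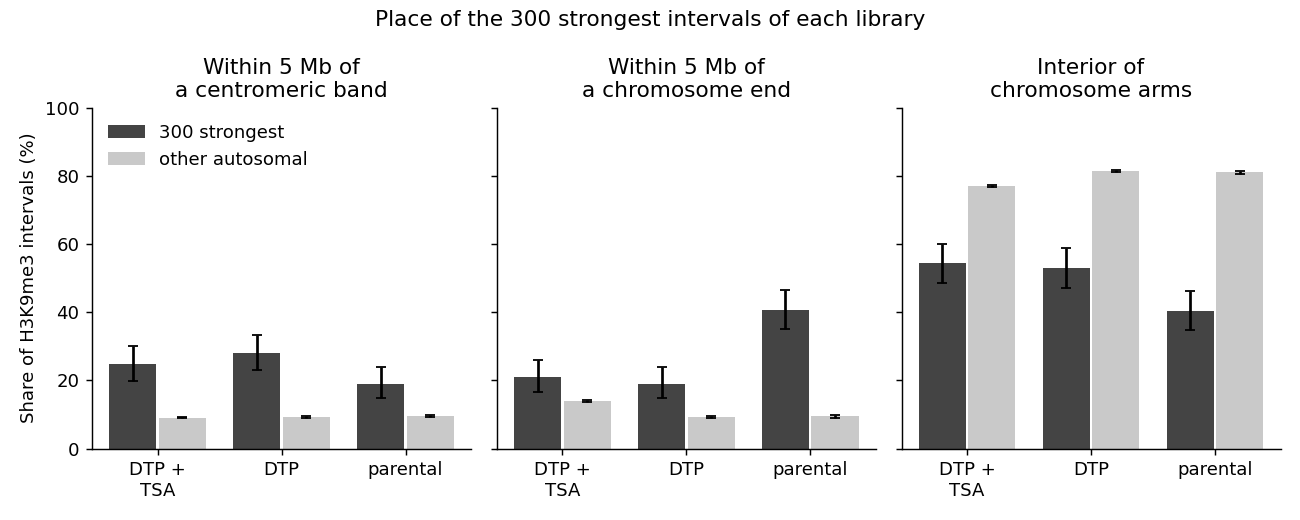
Share of H3K9me3 intervals in percent (y axis) within 5 Mb of a centromeric band, within 5 Mb of a chromosome end and in the interior of arms (panels), for the 300 strongest (dark bars) and the other autosomal intervals (pale bars) of each library (x axis), with exact 95% intervals as error bars. Near chromosome ends the dark bars are at 21% in DTP + TSA cells, 19% in DTP cells and 40.7% in parental cells.

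Chromosome ends set the parental members apart from those of both erlotinib-treated groups. The outer 5 Mb of chromosome arms held 21% of members in DTP + TSA cells (16.5% to 26.1%), 19% in DTP cells (14.7% to 23.9%) and 40.7% in parental cells (35.1% to 46.5%). The parental interval overlaps neither of the others, as far as counting error goes; with 1 library per group the difference was not tested. Among the other intervals the same zone held 13.9% in DTP + TSA cells, 9.17% in DTP cells and 9.43% in parental cells. Among those other intervals the parental share was thus not the highest. In the outer 2 Mb the order was the same, with 15.0% of members in DTP + TSA cells (11.2% to 19.6%), 13.7% in DTP cells (9.99% to 18.1%) and 25% in parental cells (20.2% to 30.3%). This order depended on how strength was measured. When the 300 were chosen by mean signal times bins, which favours long intervals, the outer 5 Mb held 44.0% in DTP + TSA cells, 24.7% in DTP cells and 28.0% in parental cells.

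The parental excess near ends was not at the extreme tips, and it was not highest among the very strongest intervals. Within 100 kb of a chromosome end lay 14 members in DTP + TSA cells, 14 in DTP cells and 9 in parental cells. These were 4.67% of members in DTP + TSA cells, against 0.176% of the rest. They were 4.67% of members in DTP cells, against 0.149%, and 3.00% in parental cells, against 0.176%. Down the parental list, the outer 5 Mb held 32 of ranks 1 to 100, 46 of the next 100 and 44 of the 100 after those. It held 48.1% of the parental intervals ranked beyond 300 and up to 1000, 20.6% of those up to 3000 and 9.29% of those up to 10000. The limit of 300 thus lay inside a distal-rich stretch of the parental list. DTP + TSA and DTP cells had no such stretch: beyond rank 300 and up to 1000, the distal share was 14.7% in DTP + TSA cells and 16.4% in DTP cells.

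**Figure D2:**
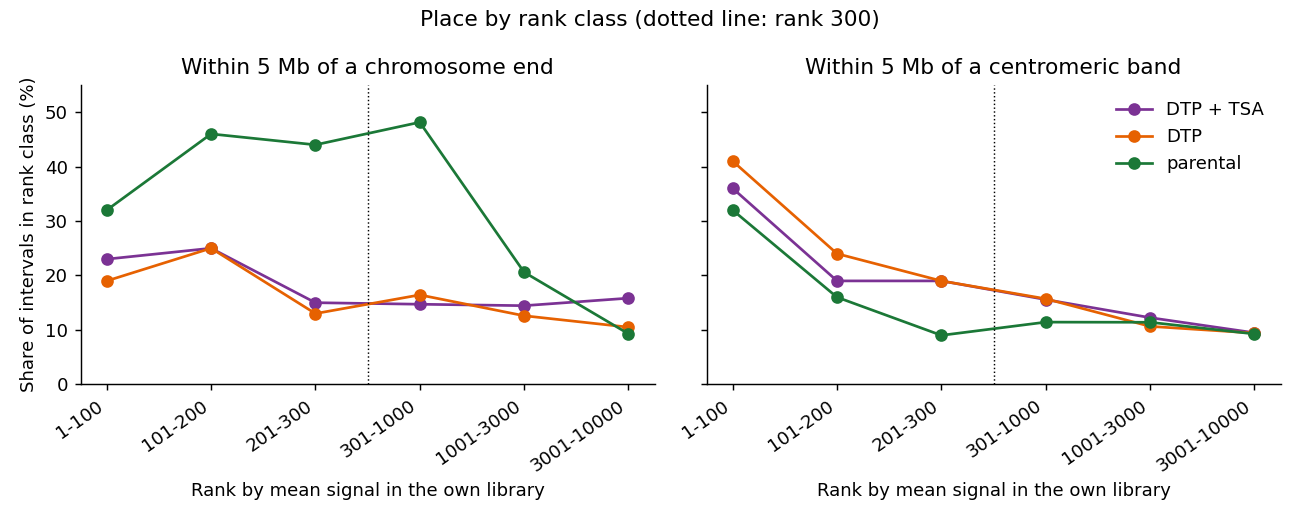
Share of intervals in percent (y axis) within 5 Mb of a chromosome end (left panel) and within 5 Mb of a centromeric band (right panel), by class of rank on mean signal in the own library (x axis), with 1 line per library and a dotted line at rank 300. The share near ends stays between 32% and 48.1% through rank 1000 in parental cells, whereas the share near centromeres is highest at ranks 1 to 100 in all 3 libraries.

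The remaining members were interior, 54.3% of all members in DTP + TSA cells, 53.0% in DTP cells and 40.3% in parental cells. Of the other intervals, 77.0% were interior in DTP + TSA cells, 81.5% in DTP cells and 81.0% in parental cells. By Giemsa stain, members favoured pale bands, which are gene-rich, over dark ones. Bands with no stain held 60.3% of members in DTP + TSA cells, 59.0% in DTP cells and 67.0% in parental cells. They held 52.6% of the rest in DTP + TSA cells, 46.7% in DTP cells and 48.1% in parental cells. The darkest bands held 11.7% of members in DTP + TSA cells, 11.3% in DTP cells and 7% in parental cells. They held 23% of the rest in DTP + TSA cells, 29.1% in DTP cells and 27.7% in parental cells.

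The strongest single places lay mainly at the edges of centromeres, and the libraries had most of them in common. The interval at the edge of the chromosome 1 centromere, in 1p11.2, ranked 1 in DTP + TSA cells (chr1:121471601-121485600, mean signal 5255), 2 in DTP cells (6004) and 1 in parental cells (chr1:121474001-121485600, 2911). At 10q11.21 the interval that starts at position 42355001 ranked 5 in DTP + TSA cells (2203), 6 in DTP cells (2644) and 2 in parental cells (1913). On 18q11.1 the interval from 18511001 ranked 3 in DTP + TSA cells (2258), 5 in DTP cells (2918) and 3 in parental cells (1223). These 3 places were among the 6 strongest in every library. On 19q11 the place from 27731801 ranked 7 in DTP + TSA cells (1648), 3 in DTP cells (3683) and 4 in parental cells (1074). The parental list's rank 5 was chr16:33236801-33242400 in 16p11.2, with a mean signal of 1034, and the same place ranked 15 in DTP + TSA cells (868) and 15 in DTP cells (1026).

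Outside the zone near centromeric bands, 19q13.12, 16q11.2 and 17q24.2 held shared strong places. The place in 16q11.2 was outside that zone only by its distance to the centromeric band. It was inside the wider zone that also counts variable bands, so it was not clearly away from the centromere. At chr19:37783401-37785600 in 19q13.12 the mean signal was 3586 in DTP + TSA cells (rank 2), 2331 in DTP cells (rank 7) and 713 in parental cells (rank 9). The place from chr16:46385801 in 16q11.2, inside the variable band of chromosome 16, had 832 in DTP + TSA cells (rank 19), 1046 in DTP cells (rank 14) and 921 in parental cells (rank 7). On 17q24.2 the place starting at 64791801 had 1129 in DTP + TSA cells (rank 12), 626 in DTP cells (rank 22) and 527 in parental cells (rank 11). All 3 places were within the 22 strongest of each library. Near the tip of 10q, chr10:135490601-135491200 in 10q26.3 had 1611 in DTP + TSA cells (rank 8) and 844 in DTP cells (rank 18), and no interval was called there in parental cells.

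Overlap between the libraries was more frequent for the strongest intervals than for intervals in general, by an amount that varied with the pair. Of the 300 members in DTP + TSA cells, 294 (98.0%) overlapped some DTP interval by at least 1 bp, where 65.8% of all autosomal DTP + TSA intervals did so. Of these members, 261 (87.0%) overlapped some parental interval, against a background of 30.8%. Among DTP members, 297 (99.0%, background 72.1%) overlapped a DTP + TSA interval and 259 (86.3%, background 34.9%) overlapped a parental one. Parental members overlapped a DTP + TSA interval in 261 cases (87.0%, background 62.3%) and a DTP interval in 237 (79.0%, background 63.9%). So most members of any list were called in the others. The gap to the background was smallest for parental members. Members were longer than the rest in DTP + TSA cells (median 3600 bp against 2400 bp) and DTP cells (3400 bp against 2600 bp). In parental cells they were not (3600 bp against 3800 bp). The part of length in these overlaps was not tested.

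Being among the 300 strongest of both libraries was rarer, and it depended on the pair. Of DTP + TSA members, 216 (72.0%, 66.6% to 77.0%) overlapped a DTP member, where 0.595% of all DTP + TSA intervals did. Only 116 of them (38.7%, 33.1% to 44.4%; background 0.527%) overlapped a parental member. Of DTP members, 217 (72.3%, 66.9% to 77.3%; background 0.659%) overlapped a DTP + TSA member and 130 (43.3%, 37.6% to 49.2%; background 0.535%) overlapped a parental member. Of parental members, 119 (39.7%, 34.1% to 45.4%; background 1.24%) overlapped a DTP + TSA member and 131 (43.7%, 38.0% to 49.5%; background 1.23%) a DTP member. The lists of DTP + TSA and DTP cells shared more members with each other than either did with the parental list. The intervals of the shares do not overlap, as far as counting error goes. They treat members as independent, although some lie close together. With 1 library per group the difference was not tested.

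The share of parental members that were also members in the other libraries varied with place. Of the 57 parental members near centromeres, 41 (71.9%) overlapped a DTP + TSA member and 48 (84.2%) overlapped a DTP member. Of the 122 distal parental members, 27 (22.1%) overlapped a DTP + TSA member and 30 (24.6%) a DTP member. The 121 interior ones lay between, with 51 overlapping a DTP + TSA member and 53 a DTP member. Among the other parental intervals, 1.75% near centromeres, 1.07% of distal and 0.570% of interior ones overlapped a DTP + TSA member. For a DTP member these shares were 1.75%, 0.793% and 0.526%. Parental members near centromeres also ranked higher, with 32 at ranks 1 to 100 and 9 at ranks 201 to 300. Place and rank were not separated. Seen from the other side, distal members of DTP cells were not the least shared: 30 of 57 (52.6%) overlapped a parental member. Near centromeres 47 of 84 (56.0%) did so, and in the interior 53 of 159 (33.3%). Among the other DTP intervals the shares were 1.62% for distal ones, 0.237% near centromeres and 0.0980% in the interior.

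Shared members also had the same borders and summits more often than other shared intervals. Among DTP + TSA members that overlapped a DTP interval, 62 of 294 had the same start and end as a DTP interval, against 6.76% of the other overlapping intervals. The shares were 15.7% and 1.49% for DTP + TSA against parental cells, and 17.0% and 1.66% for DTP against parental cells. Summits lay within 100 bp of each other for 78.2% of the overlapping DTP + TSA members set against DTP cells, where the share among the others was 41.9%. The median distance between summits was 16 bp for these members and 144 bp for the other overlapping intervals. For DTP members set against parental cells it was 48 bp, against 320 bp. Borders lie on a grid of 200 bp, and 17 members had identical start and end in all 3 lists, 13 of them interior.

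Merging overlapping members across the libraries gave 539 loci. Of these, 105 held a member of all 3 libraries, 111 of DTP + TSA and DTP cells, 11 of DTP + TSA and parental cells, and 23 of DTP and parental cells. A member of 1 library alone made up 73 loci in DTP + TSA cells, 58 in DTP cells and 158 in parental cells. Of all 539 loci, 19.9% were near centromeres, 30.2% distal and 49.9% interior. Of the 105 loci in all 3 lists, 46 (43.8%) were interior, 36 (34.3%) near centromeres and 23 (21.9%) distal. Of the 158 parental-only loci, 88 (55.7%, 47.6% to 63.6%) were distal, 63 (39.9%) interior and 7 (4.43%) near centromeres.

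**Figure D3:**
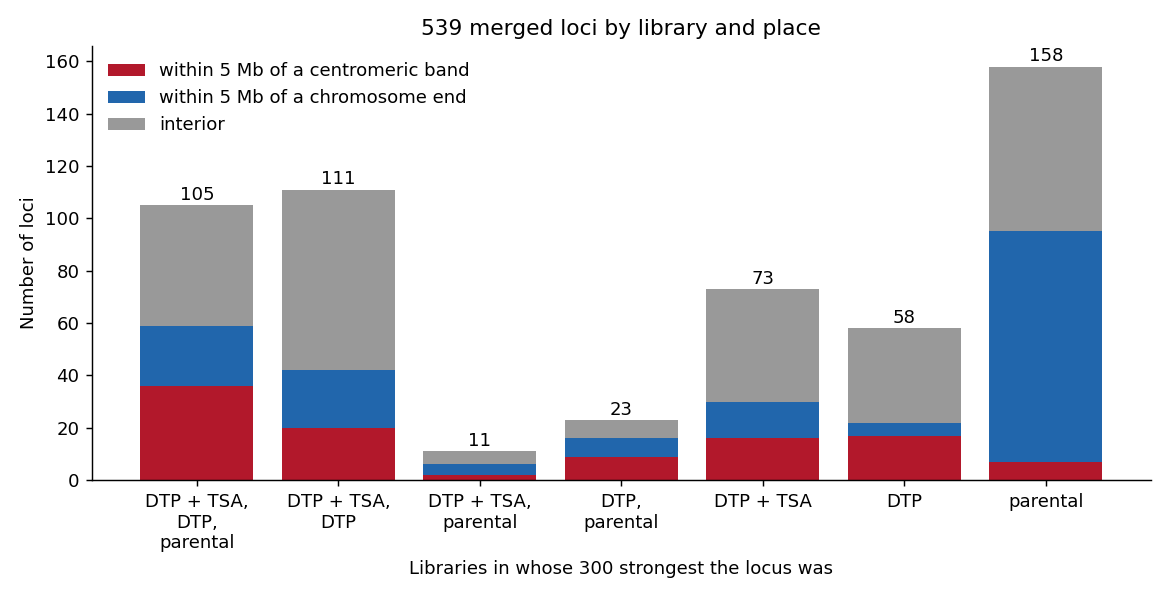
Number of merged loci (y axis) for each combination of the 3 lists that holds a member (x axis), split by place. The 158 parental-only loci are mostly distal (88), while the 105 loci in all 3 lists include 36 near centromeres.

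Many loci in 1 list only were called in the other libraries at lower rank. Of the 88 distal parental-only loci, 73 (83.0%) were called in DTP + TSA cells, at a median rank of 3979. In DTP cells 60 (68.2%) were called, at a median rank of 2372. Of the distal parental intervals outside the members, 80.1% overlapped a DTP + TSA interval and 69.7% a DTP interval. Both shares of the 88 loci were near these. Of all 158 parental-only loci, 119 (75.3%) were called in DTP + TSA cells and 95 (60.1%) in DTP cells. For comparison, 62.3% of all parental intervals overlapped a DTP + TSA interval and 63.9% overlapped a DTP interval, so the share in DTP cells was near that of intervals in general. The lists of DTP + TSA and DTP cells, but not the parental list, held 111 loci. Of these, 83 were called in parental cells, at a median rank of 826, and 28 were not. For comparison, 30.8% of all DTP + TSA intervals and 34.9% of all DTP intervals overlapped a parental interval. The 111 loci were called in parental cells more often than intervals in general, but they were chosen as strong. Of all members, 87.0% in DTP + TSA cells and 86.3% in DTP cells overlapped a parental interval. Those shares include members that overlapped a parental member. The 111 loci were thus not called more often than members as a whole. Ranks below 300 in the libraries that did not choose a locus follow from the rule. The libraries also differ in list length, so ranks from different lists show no change in signal.

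Members with no overlap at all in either other library numbered 5 in DTP + TSA cells (1.67%), 3 in DTP cells (1.00%) and 38 in parental cells (12.7%). Among all autosomal intervals the shares were 30.6% in DTP + TSA cells, 23.1% in DTP cells and 29.4% in parental cells. The 3 such members of DTP cells ranked 1, 4 and 13. The strongest interval of the whole DTP list, chr10:42596601-42602200 in 10q11.21, had a mean signal of 12361 and a summit of 78237, and neither other library had an interval there. The nearest DTP + TSA interval was 3.40 kb away, at rank 991, and the nearest parental one was 7.60 kb away. The other 2 were chr8:43092801-43097600 in 8p11.21 (rank 4, mean signal 2964) and chr3:196625601-196626000 in 3q29 (rank 13, 1106). A place that is not called can still have reads, because the lists hold only intervals past the authors' unstated threshold. In DTP + TSA cells, the strongest member of this kind was chr18:105201-112600 in 18p11.32 (rank 13, 1095), with intervals of both other libraries 6.40 kb away. Next were chr1:156186201-156186800 (rank 114) and chr10:130017401-130018000 (rank 137). The strongest parental members without overlap were chr7:150606001-150609200 in 7q36.1 (rank 56, 165), chr22:50774801-50780200 in 22q13.33 (rank 61, 147) and chr9:35913001-35914600 in 9p13.3 (rank 75, 117).

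To compare order on equal terms, the 423 loci called in all 3 libraries were ranked again among themselves in each library. Across these loci Spearman's rho was 0.78 for DTP + TSA against DTP cells, 0.30 for DTP against parental cells and 0.19 for DTP + TSA against parental cells. Within the 105 loci of all 3 lists, rho was 0.90 for DTP + TSA against DTP cells, 0.76 for DTP against parental cells and 0.62 for DTP + TSA against parental cells. These are descriptions across loci, since the loci share each library's depth and were chosen for being strong in at least 1 library, which thins out loci that are weak in both.

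These common ranks are a description by place, and their direction is largely set by the choice of members: 88 of the 163 distal loci were members in parental cells alone. The median common rank of distal loci was 335.5 in DTP + TSA cells, 304 in DTP cells and 155.5 in parental cells. Interior loci had median ranks of 205 in DTP + TSA cells, 209 in DTP cells and 269 in parental cells. Loci near centromeres had 152.5 in DTP + TSA cells, 138 in DTP cells and 189.5 in parental cells. There were 23 distal loci in all 3 lists. Their median rank in the own list was 77 in DTP + TSA cells, 88 in DTP cells and 68 in parental cells. High ranks in every library are set by the choice of these loci as members of all 3 lists. Ranks in the own list are also on another scale than the common ranks. These values therefore cannot tell whether the distance between libraries was smaller there. From DTP to DTP + TSA cells the median shift on the common ranks was 0 places for distal loci. It was 4 places up for interior loci and 10 places down for loci near centromeres.

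**Figure D4:**
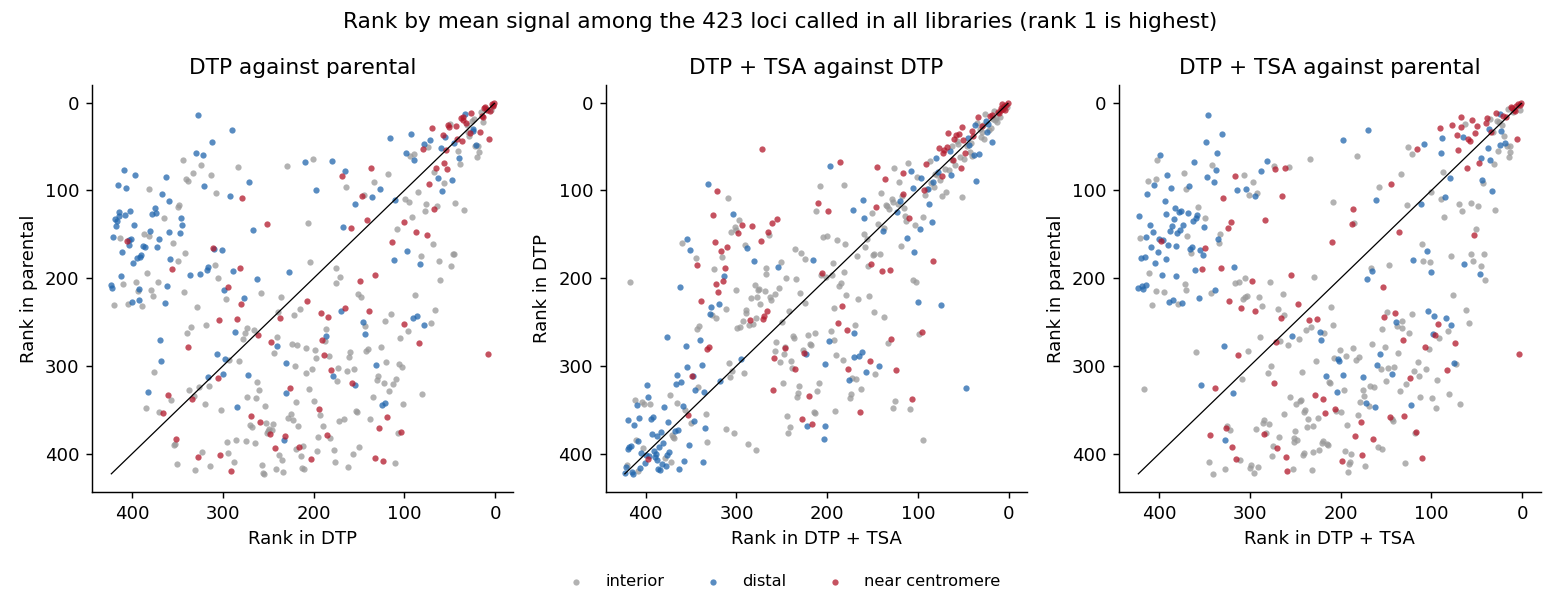
Rank by mean signal among the 423 loci called in all 3 libraries (both axes, rank 1 highest), for DTP against parental, DTP + TSA against DTP and DTP + TSA against parental cells, with points coloured by place and a line of equal rank. Distal points have median ranks of 335.5 in DTP + TSA, 304 in DTP and 155.5 in parental cells; many of them became members through the parental list alone, which places them high on the parental axis.

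Single loci were named by the size of their shift, and each had to be strong in at least 1 library to be included. The loci that moved farthest between libraries lay near centromeres, in the interior and at chromosome ends. The locus chr7:61967201-61998800 in 7q11.21, beside the centromere, had a mean signal of 2238 in DTP + TSA cells (rank 4), 1432 in DTP cells (rank 11) and 27.9 in parental cells (rank 691). It stood 279 places higher in DTP than in parental cells on the common ranks, behind chr7:57925601-57930000 (284 places) and, with the largest rise, chr5:140165401-140169000 in 5q31.3. The 3 largest falls of DTP against parental cells were all distal: 332 places at chr16:89139801-89143800 in 16q24.3, 322 at chr18:77340201-77344400 and 314 at chr18:77377801-77381000 in 18q23. The last of these had a mean signal of 45.4 in DTP + TSA cells, 39.1 in DTP cells and 403 in parental cells. For DTP + TSA against parental cells, the largest falls were 339 places at chr2:239393001-239397400 in 2q37.3, 336 at chr7:69960401-69962400 and 332 at the same 18q23 locus. The largest rises were 295 places at chr21:9436401-9443600, 283 at the 7q11.21 locus and 282 at the 5q31.3 locus.

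Between DTP + TSA and DTP cells the largest rise was at chr19:53221201-53225400 in 19q13.41, one of the zinc finger bands, where the locus stood 290 places higher. Its mean signal was 164 in DTP + TSA cells, 25.3 in DTP cells and 20.4 in parental cells. Next were chr3:197184401-197187600 (278 places) and chr15:84853801-84862600 (240 places). The largest falls were 238 places at chr5:642801-653000 in 5p15.33, 220 at chr22:18878001-18880600 and 219 at chr5:49409801-49410600.

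Strong loci were mostly scattered. Joined at 100 kb, the 539 loci fell into 443 clusters, of which 392 were single loci, while 17 clusters of 3 or more held 79 loci. The band with the most members in every list was 19q13.12, with 17 members in DTP + TSA cells (5.67%), 19 in DTP cells (6.33%) and 12 in parental cells (4%). It held 0.364% of the rest in DTP + TSA cells, 0.379% in DTP cells and 0.330% in parental cells. In the GRCh38 gene table this band has 33 zinc finger (ZNF) genes among 134 genes. Such genes encode DNA-binding repressors, many of which recruit SETDB1 through TRIM28. The 6 zinc finger bands listed for chromosome 19 (19p13.2, 19p12, 19q13.12, 19q13.31, 19q13.41 and 19q13.43) together held 21 members in DTP + TSA cells (7%, against 2.24% of the rest), 20 in DTP cells (6.67%, against 2.06%) and 12 in parental cells (4%, against 2.01%). Most or all of these were the members in 19q13.12. In 19p12 there were 2 in DTP + TSA cells (0.667%, against 0.654% of the rest), 0 in DTP cells (0.763% of the rest) and 0 in parental cells (0.682% of the rest).

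All members of 19q13.12 lay in 2 short clusters. The first, chr19:36764001-36802800, had 10 loci, with 8 members in DTP + TSA cells, 10 in DTP cells and 6 in parental cells. Its best ranks were 16 in DTP + TSA cells, 24 in DTP cells and 52 in parental cells. Within it 6 successive loci of 600 bp each began at regular steps of 2.4 or 2.6 kb, on the 200 bp grid. The second, chr19:37754401-37799400, had 9 loci, with 9 members in DTP + TSA cells, 9 in DTP cells and 6 in parental cells. It contains the interval at rank 2 in DTP + TSA cells described above.

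The cluster of 5q31.3 was among the strongest in both erlotinib-treated groups and outside the members in parental cells. It was named after its values were seen, as were the clusters described next and the single distal bands. Its 10 loci spanned chr5:140165401-140252200, with 8 members in DTP + TSA cells, 10 in DTP cells and 0 in parental cells. All 10 loci were called in each library. For comparison, 30.8% of all DTP + TSA intervals and 34.9% of all DTP intervals overlapped a parental interval. The mean signals of the 10 loci ran from 76.0 to 124 in DTP + TSA cells (ranks 153 to 389). In DTP cells they ran from 63.0 to 105 (ranks 133 to 261) and in parental cells from 12.5 to 41.2 (ranks 374 to 3671). The best parental rank was therefore just outside the limit and the lowest far below it. In the GRCh38 gene table the band 5q31.3 has 64 clustered protocadherin genes among 169 genes. Clustered protocadherins are cell-surface adhesion proteins whose alternative promoters are chosen cell by cell in neurons. Which genes these loci overlap was not analysed here.

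A few more clusters are given with the gene content of their bands. At 1q23.3, chr1:161411401-161443400 had 5 loci, with 5 members in DTP + TSA cells, 5 in DTP cells and 4 in parental cells. Their mean signals ran from 187 to 540 in DTP + TSA cells, from 120 to 269 in DTP cells and from 35.9 to 157 in parental cells. That band has 32 transfer RNA genes in the GRCh38 table. At 1q42.13, chr1:228755601-228773600 had 5 loci, with 4 members in DTP + TSA cells, 5 in DTP cells and 1 in parental cells. In parental cells 3 of these 5 loci were called and 2 were not. For comparison, 30.8% of all DTP + TSA intervals and 34.9% of all DTP intervals overlapped a parental interval. Band 1q42.13 has 17 genes for 5S ribosomal RNA in the same table. At 4q28.3, a band with 4 protein-coding genes in that table, chr4:132642401-132687000 had 4 loci, with 4 members in DTP + TSA cells, 5 in DTP cells (a pair of them in 1 locus) and 2 in parental cells.

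Other bands known for repeats had few members. The end bands of 4q and 10q and the acrocentric short arms still held a larger share of the members than of the rest. Bands 4q35.2 and 10q26.3 reach the ends of 4q and 10q, where arrays of the D4Z4 repeat carry DUX4. As whole bands they held 8 members in DTP + TSA cells (2.67%, against 0.650% of the rest) and 5 in DTP cells (1.67%, against 0.461%). In parental cells they held 6 (2%, against 0.475%). The counts are not of the arrays themselves. In 10q26.3 the 3 members of DTP + TSA cells and the 3 of DTP cells lay near the tip, in chr10:135490601-135524800. None of the 5 parental members of 10q26.3 lay there. The short arms of the acrocentric chromosomes, home of the ribosomal DNA arrays, held 4 in DTP + TSA cells (1.33%, against 0.0593%), 5 in DTP cells (1.67%, against 0.0599%) and 3 in parental cells (1%, against 0.0572%). These counts are small, and their 95% intervals are wide. The region 2q21, remnant of an ancestral centromere, held 1 in each library (0.333%, with a 95% interval of 0.00844% to 1.84%). It held 0.243% of the rest in DTP + TSA cells, 0.191% in DTP cells and 0.176% in parental cells. A count of 1 thus shows no excess over the rest. This member ranked 26 in DTP + TSA cells, 40 in DTP cells and 26 in parental cells. Of the 24 bands with a distal member and at least 5 members in all, 18 had most members in the parental list. DTP + TSA cells had the most in 2 bands and DTP cells in 1, and 3 had a tie for the most. These bands were picked by the members of all 3 lists together. Distal members numbered 63 in DTP + TSA cells, 57 in DTP cells and 122 in parental cells. The count of bands therefore restates the distal shares given above and adds no separate result. In 2q37.3, 2 of 258 intervals were members in DTP + TSA cells, 1 of 139 in DTP cells and 9 of 111 in parental cells. In 7q36.3 they were 2 of 205 in DTP + TSA cells, 2 of 136 in DTP cells and 8 of 87 in parental cells. Other distal bands had another order. In 4q35.2, 5 of 107 intervals were members in DTP + TSA cells, 2 of 92 in DTP cells and 1 of 54 in parental cells. In 5p15.33 they were 5 of 193 in DTP + TSA cells, 9 of 104 in DTP cells and 8 of 59 in parental cells, and 1q44 had 3 members in DTP + TSA cells, 3 in DTP cells and 1 in parental cells.

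The ratio of summit to mean signal tells how far a single peak stands above the rest of its interval. Its median over members was 3.44 in DTP + TSA cells (95% interval from order statistics 3.21 to 3.69), 3.33 in DTP cells (3.12 to 3.57) and 3.47 in parental cells (3.18 to 3.92). The other intervals had 2.22 in DTP + TSA cells, 2.12 in DTP cells and 2.27 in parental cells. The mean is the denominator of this ratio and also chose the members, so these values are a description. The medians of the 3 libraries differed by less than their intervals. Ratios over 10 were found in 26 members in DTP + TSA cells (8.67%), 27 in DTP cells (9%) and 22 in parental cells (7.33%). Among the rest such ratios made up 0.265% in DTP + TSA cells, 0.155% in DTP cells and 0.123% in parental cells.

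Ratios were highest near centromeres, with medians of 4.75 in DTP + TSA cells, 4.64 in DTP cells and 6.80 in parental cells. Distal members had 3.60 in DTP + TSA cells, 3.73 in DTP cells and 3.86 in parental cells, and interior ones had 3.11 in DTP + TSA cells, 2.95 in DTP cells and 2.77 in parental cells. The members in 19q13.12, many of them short, had low ratios, with medians of 1.93 in DTP + TSA cells, 1.85 in DTP cells and 1.99 in parental cells. Length moved with the ratio: across the 300 members Spearman's rho between them was 0.71 in DTP + TSA cells, 0.77 in DTP cells and 0.74 in parental cells. Members near centromeres were longer, with median lengths of 6300 bp in DTP + TSA cells, 5500 bp in DTP cells and 8000 bp in parental cells. Distal members had 3400, 3200 and 3800 bp in the same order, and interior ones 3000, 2800 and 2600 bp. The parts of place and length in the ratio were not separated. Members of at most 1 kb had medians of 1.64 in DTP + TSA cells, 1.69 in DTP cells and 1.73 in parental cells. The rest in that length class had 1.57 in DTP + TSA cells, 1.54 in DTP cells and 1.52 in parental cells. Members above 6 kb had 7.18 in DTP + TSA cells, 7.17 in DTP cells and 6.74 in parental cells. The rest above 6 kb had 3.29 in DTP + TSA cells, 2.85 in DTP cells and 2.82 in parental cells. The gap between members and other intervals was thus wider above 6 kb than at 1 kb or less. The class above 6 kb is not matched on length. Its members had median lengths of 11600 bp in DTP + TSA cells, 12000 bp in DTP cells and 10200 bp in parental cells. The rest there had 8000, 7400 and 8400 bp in the same order.

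**Figure D5:**
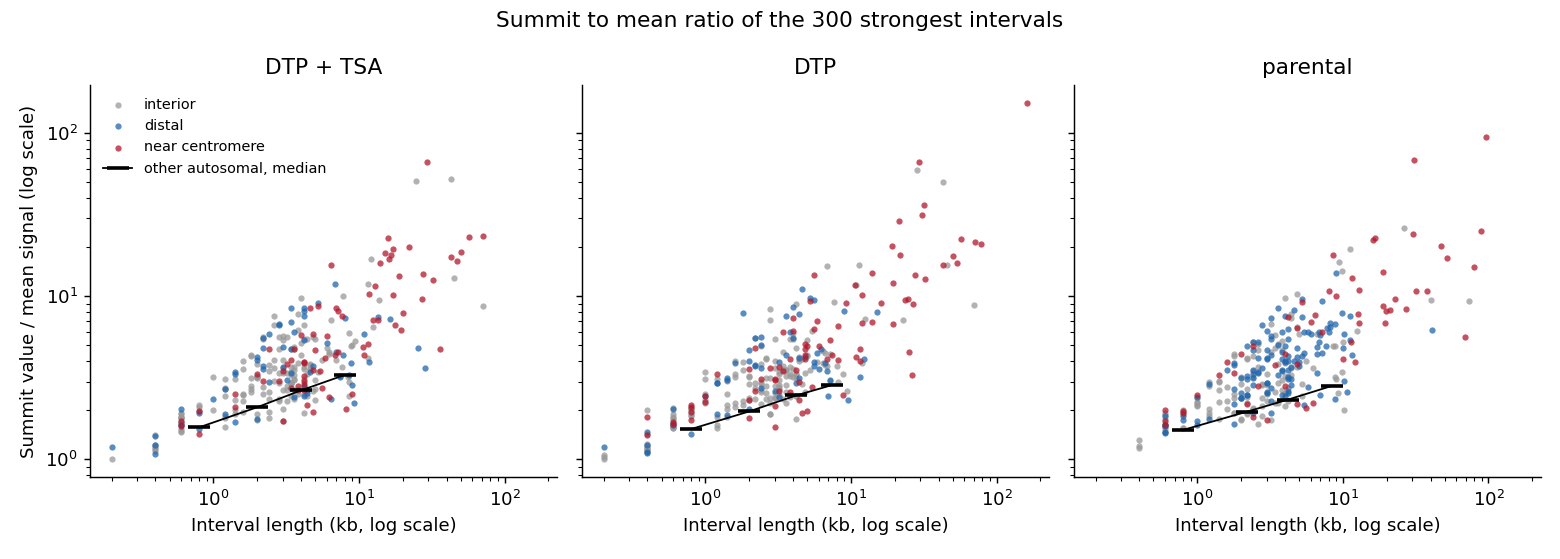
Summit to mean ratio (y axis, log scale) against interval length in kb (x axis, log scale) for the 300 members of DTP + TSA, DTP and parental cells (panels), with points coloured by place and black bars for the median of the other autosomal intervals in 4 length classes. Short members lie near the black bars and long members above them; above 6 kb the median is 7.18 for members and 3.29 for the rest in DTP + TSA cells.

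The highest ratios were those of long intervals with a narrow peak. In 21p11.2 chr21:10698001-10860800 had a ratio of 153 in DTP cells and was also their longest member, at 162.8 kb. Parental cells had a ratio of 94.1 there, at chr21:10767801-10863400, their longest member at 95.6 kb. In DTP + TSA cells the same place ranked 310, outside the members, with a ratio of 162. The place from chr20:29804001 in 20q11.21 had nearly the same ratio in each library, 66.7 in DTP + TSA cells, 66.2 in DTP cells and 68.1 in parental cells. The longest DTP + TSA member was chr4:49093201-49164600 in 4p11, at 71.4 kb. At the other extreme, chr18:50319201-50319400 in 18q21.2, a single step of 200 bp, had a ratio of 1 in DTP + TSA and DTP cells and was not called in parental cells.

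The loci shared by all 3 lists had much the same ratio in each library. At the 105 loci of all 3 lists, the quotient of the ratios of a pair of libraries had a median between 1.01 and 1.02. The quotient was within 1.5-fold at 95 loci for DTP + TSA against DTP cells, at 88 for DTP against parental cells and at 80 for DTP + TSA against parental cells.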

How the data were processed

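H3K9me3 immunoprecipitates from 3 PC9 groups were sequenced, and each has a deposited interval list; the 2 H3K4me3 and 3 input libraries were not analysed here. BWA, SICER, hg19 and dm3 are named, without version or role, per the submitters' processing notes. Input, calling threshold and scaling were not given in the sources used here. Summit and mean values are the authors' signal within an interval, per the file headers, over bins of about 32 bp. Depth is unknown. Starts and ends, all on a 200 bp grid, were converted to 1-based hg19 positions.

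The 300 autosomal intervals of highest mean signal per library were kept; X and Y were left out, and a member was assigned to 1 of 3 exclusive places: within 5 Mb of a centromeric band, otherwise in the outer 5 Mb (distal), otherwise interior. Members overlapping by at least 1 bp were merged into loci. Bands came from the hg19 table of circlize 0.4.16 (R 4.3.3); band gene counts come from a GRCh38 table by band name. Calculations ran in Python 3.11.15 (scipy 1.17.1, pandas 2.3.3, numpy 2.4.6) and plots in matplotlib 3.10.9. With 1 library per group no test between groups was made. The code was tested on simulated intervals, where 12 of 12 checks passed.

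Loci were named by rule: the 5 highest per library, the 3 highest over 5 Mb from a centromeric band, the 3 highest and lowest ratios, the longest, the 3 largest rises and falls in rank per pair, the 3 highest without overlap, and ranks 300 and 301. Of some of these the text gives the foremost. The members, band lists and rules were chosen with earlier results of these data known. Alternatives changed the number of members, the ranking measure, a minimum length, the overlap, the joining distance, and the chromosomes and bands included.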

Additional observations from a re-analysis of the deposited data

How the results depend on the processing

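Over 17 values and 10 alternatives, 94 of 138 recomputed values changed by less than their 95% interval (counts of loci by less than 1.5-fold) and 44 moved. None moved when X and Y were included, members within 5 kb were joined, 50% overlap was required, or centromeric, variable and stalk bands were left out. With the 100 strongest, 53 of 155 loci were in all 3 lists, and centromeric bands held 13% in DTP + TSA, 14% in DTP and 12% in parental cells. The parental outer 5 Mb then held 32%, the median ratio was 4.04 in DTP and 4.05 in parental cells, and overlaps were 84.0% (DTP + TSA with DTP), 54.0% (DTP + TSA with parental) and 60.0% (DTP with parental). With the 1000 strongest, 279 of 1918 loci were in all 3 lists, and centromeric bands held 4.10% in DTP + TSA, 4.90% in DTP and 3.70% in parental cells. The DTP + TSA outer 2 Mb then held 10.5%, and overlaps were 32.9% (DTP + TSA with parental) and 33.7% (DTP with parental). With the strongest 1% of each list, overlaps were 64.8% (DTP + TSA with DTP), 22.99% (DTP + TSA with parental) and 27.3% (DTP with parental). Ranking by summit put 24% in DTP + TSA, 20.3% in DTP and 33.3% in parental cells in the outer 2 Mb, and 31.33% in DTP + TSA, 28.0% in DTP and 49.7% in parental cells in the outer 5 Mb. It gave ratios of 6.55 in DTP + TSA, 6.01 in DTP and 5.55 in parental cells, and an overlap of DTP + TSA with DTP of 81.3%. Ranking by mean times bins put 32% in DTP + TSA and 20.3% in DTP cells in the outer 2 Mb, and 44.0% in DTP + TSA, 24.7% in DTP and 28.0% in parental cells in the outer 5 Mb. It put 15.3% of DTP members in centromeric bands, with ratios of 7.0 in DTP + TSA, 5.63 in DTP and 4.41 in parental cells, and overlaps with parental members of 51% (DTP + TSA) and 57.7% (DTP). A minimum of 1 kb gave a DTP ratio of 3.58. For these moved values the cause was not tested. Parental cells had the highest distal share under 7 of the 8 alternatives that change the members, for both zones, the exception being mean times bins. The outer 5 Mb class was chosen after seeing the data. No paired analysis was possible because each group is 1 library. Unknown depth, scaling and input limit every comparison of signal, and repeats were not annotated.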

Other observations

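By chromosome, members were the largest share of the interval list on chromosome 21 in DTP + TSA cells (1.32%) and DTP cells (1.98%) and on chromosome 16 in parental cells (3.72%). On chromosome 21 the parental share was 3.50%. Over all autosomes members were 0.590% of the list in DTP + TSA cells, 0.661% in DTP cells and 1.30% in parental cells. Chromosome 19 had 25 members in DTP + TSA cells (1.03% of its list), 23 in DTP cells (1.40%) and 16 in parental cells (2.05%). Chromosome 12 had 4 in DTP + TSA cells (0.151%), 4 in DTP cells (0.164%) and 11 in parental cells (0.88%), below the autosomal share in each library. Chromosome 22 had 3 in DTP + TSA cells (0.348%), 8 in DTP cells (1.59%) and 9 in parental cells (3.46%). Members lay in 171 bands in DTP + TSA cells, 163 in DTP cells and 153 in parental cells. On X and Y, which were left out, some intervals had a mean signal at or above that of rank 300. They were 24 of 2115 in DTP + TSA cells, 24 of 2485 in DTP cells and 23 of 799 in parental cells.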
